A study of Mus musculus with 6 samples.

Results

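The plasminogen system makes the protease plasmin at the cell surface. Apart from Serpinb9, a granzyme B inhibitor gene, the 8 mouse genes described here belong to it or to the matrix and coagulation around it. They were taken out of 19505 genes measured in LPS-treated and untreated macrophages and comprise the plasminogen activators Plau and Plat, the urokinase receptor Plaur, the protease inhibitors Serpinb2 and Serpinb9, the matricellular genes Tnc and Thbs1, and the coagulation initiator F3. The members were taken by gene symbol, 1 probe set each, and all 8 were measured. Serpinb2 and Tnc were picked because they were already known to be among the genes that stood highest in LPS-treated Lpin2 KO cells over WT cells. Their values in KO cells with LPS are therefore given as a description, with no test. The other members were also chosen with earlier results of these data known, so calls on them are no independent evidence.

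The cells were RAW-D, a subclone of the mouse macrophage line RAW264.7 that forms osteoclasts readily. The WT line and 2 Lpin2 KO clones, #1 and #2, were each grown untreated or with LPS, the outer membrane component of Gram-negative bacteria that the receptor TLR4 senses, at 200 ng/mL for 4 h, with 1 mouse Clariom S array per culture and 6 arrays in all. Each KO clone is a separate puromycin-selected line grown out from an isolated cell after CRISPR/Cas9 cutting with a repair plasmid, and no cloning of the WT cells is described. Lipin2, the product of Lpin2, is a phosphatidate phosphatase whose loss in people causes an autoinflammatory bone disease, and the comparisons ask how its loss changes the macrophage response to LPS.

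Urokinase (Plau) and tissue plasminogen activator (Plat) cut plasminogen into plasmin, a broad protease that dissolves fibrin and remodels matrix, and the receptor encoded by Plaur holds urokinase at the cell surface. Serpinb2, also called plasminogen activator inhibitor 2, inhibits urokinase in biochemical assays, is kept largely inside the cell and is a classical LPS-induced transcript of macrophages. Serpinb9 is an intracellular inhibitor of granzyme B. Tenascin C (Tnc) and thrombospondin 1 (Thbs1) are secreted matricellular glycoproteins that appear in wounds and inflamed tissue, and tissue factor (F3) binds factor VIIa and starts coagulation.

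Promoter sequence was available for 5 of the 8 genes from RefSeq (GRCm38.p6): Serpinb2, Plaur, Tnc, F3 and Serpinb9, but not Plau, Plat and Thbs1. Windows of 300 bases, 250 before and 50 after a listed transcript start, were searched on both strands for 7 motifs. The 250 bases before the start are shown for the 4 genes that differed most between KO and WT cells with LPS, 5′ to 3′ on the gene's own strand, with every motif match in capitals. The first is the most upstream listed start of Serpinb2, chr1:107511173-107511422, plus strand.
Serpinb2: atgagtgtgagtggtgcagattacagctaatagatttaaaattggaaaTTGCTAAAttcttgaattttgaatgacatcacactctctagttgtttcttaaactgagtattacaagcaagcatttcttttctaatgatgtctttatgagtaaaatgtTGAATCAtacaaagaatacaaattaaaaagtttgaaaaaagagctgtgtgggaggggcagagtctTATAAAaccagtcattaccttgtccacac
The Tnc sequence is that before its most upstream listed start, chr4:64047016-64047265, minus strand.
Tnc: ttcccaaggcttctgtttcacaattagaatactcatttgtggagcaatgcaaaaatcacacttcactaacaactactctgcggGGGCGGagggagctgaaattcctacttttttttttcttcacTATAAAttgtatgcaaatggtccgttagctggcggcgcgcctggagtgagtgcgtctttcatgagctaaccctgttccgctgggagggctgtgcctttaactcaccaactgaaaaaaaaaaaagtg
The Plaur sequence lies at chr7:24462233-24462482, plus strand.
Plaur: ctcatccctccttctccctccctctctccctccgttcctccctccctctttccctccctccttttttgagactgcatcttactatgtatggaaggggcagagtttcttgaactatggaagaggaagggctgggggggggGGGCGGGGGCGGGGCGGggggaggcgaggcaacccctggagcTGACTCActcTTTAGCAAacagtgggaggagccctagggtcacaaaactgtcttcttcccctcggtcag
The Serpinb9 sequence lies at chr13:33004291-33004540, plus strand.
Serpinb9: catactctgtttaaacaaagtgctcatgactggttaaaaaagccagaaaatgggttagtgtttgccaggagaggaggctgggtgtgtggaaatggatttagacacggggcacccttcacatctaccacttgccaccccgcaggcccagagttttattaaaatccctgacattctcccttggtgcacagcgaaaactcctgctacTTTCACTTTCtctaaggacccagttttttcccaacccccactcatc

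In the Serpinb2 sequence the capitals mark, counted back from the transcript start, a C/EBP string (TTGCNNAA) at -202 to -195, an AP-1 string (TGANTCA) at -94 to -88 and a TATA string (TATAAA) at -29 to -24. Tnc had an SP1 string (GGGCGG) at -167 to -162 and a TATA string at -126 to -121. Plaur had 3 SP1 strings between -111 and -95, the last pair sharing 1 base, an AP-1 string at -69 to -63 and a C/EBP string on the minus strand at -59 to -52. Serpinb9 had an ISRE string (GAAA and GAAA with 2 bases of any kind between) on the minus strand at -46 to -37. An AP-1 string was thus in the windows of Serpinb2, Plaur and F3, which held a pair of them, against 7.81% of the 32851 promoter windows of the mouse table. The C/EBP string was in windows of Serpinb2 and Plaur, against 10.8% of all windows. SP1 was in those of Tnc, Plaur, F3 and, after the start, Serpinb9, against 35.7%. TATA was in those of Serpinb2, Tnc and, after the start, F3, against 13.6%, and ISRE in that of Serpinb9, against 3.44%. None of the members' windows held the CRE string (TGACGTCA, 1.79% of windows) or the NF-κB string searched (8.46%). The starts used for Serpinb2, Plaur and Serpinb9 lie inside the gene spans given with their values, downstream of the first annotated base. These are matches of letters in short windows, and no binding was measured.

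The arrays gave log2 signals after robust multi-array averaging (RMA), on which a difference of 1 is a 2-fold change. A gene was counted as above background on an array where its signal passed the 95th percentile of that array's negative control probes, which lay between 9.12 and 9.45, and 28.7% to 31.4% of genes did so on each array. A group in which no array passed this level is called dim. On this measure 10 of 11 measured macrophage markers were above background, Mertk being the exception. The log2 of the macrophage markers' summed signal was 19.18 for WT and 19.69 (#1) and 19.67 (#2) for the clones without LPS, then 19.25 for WT and 19.53 (#1) and 19.55 (#2) for the clones with LPS. Single markers differed more, such as Adgre1 without LPS (10.19 for WT, 12.63 and 12.79 for clones #1 and #2) and Fcgr3 (10.86, 13.46 and 13.20), and their part in the results was not tested. None of the markers of fibroblasts and epithelium (9), endothelium and platelets (9) or lymphocytes (7) was above background on any array, and the summed signals of these lists spanned 7.89 to 8.22, 8.25 to 8.59 and 7.59 to 7.97. Lpin2 itself was dim on all 6 arrays, at 6.84 to 8.42, with the KO arrays not below the WT arrays of the same treatment, so its probe set does not check the genotype labels. By its label the untreated WT array was summarised at gene level, whereas the remaining 5 labels name the exon level. The part of that difference in the contrasts with untreated WT cells was not tested.

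The 8 genes fell into very different levels and patterns. Plaur was above background on all 6 arrays, Plau on 3 of them, Serpinb2 and Tnc on the 2 KO arrays with LPS and Serpinb9 on 1 of these. Plat, Thbs1 and F3 were above background on none. With LPS, 3 of the 6 genes other than Serpinb2 and Tnc were called higher in KO than in WT cells (Plaur, Serpinb9 and Plau) and none lower, at an adjusted p under 0.05, beside 11.3% of all genes called, 4.62% higher and 6.66% lower. The median difference of these 6 was 1.29, against -0.003 for all genes. These 6 were chosen with earlier results of these data known, so their calls and median are no independent evidence. Without LPS, 1 of the 8 was called higher (Plau) and 1 lower (Plaur), beside 4.31% of all genes, 2.16% higher and 2.14% lower. The medians there were 0.07 for the 8 genes and 0.027 for all genes.

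**Figure D1:**
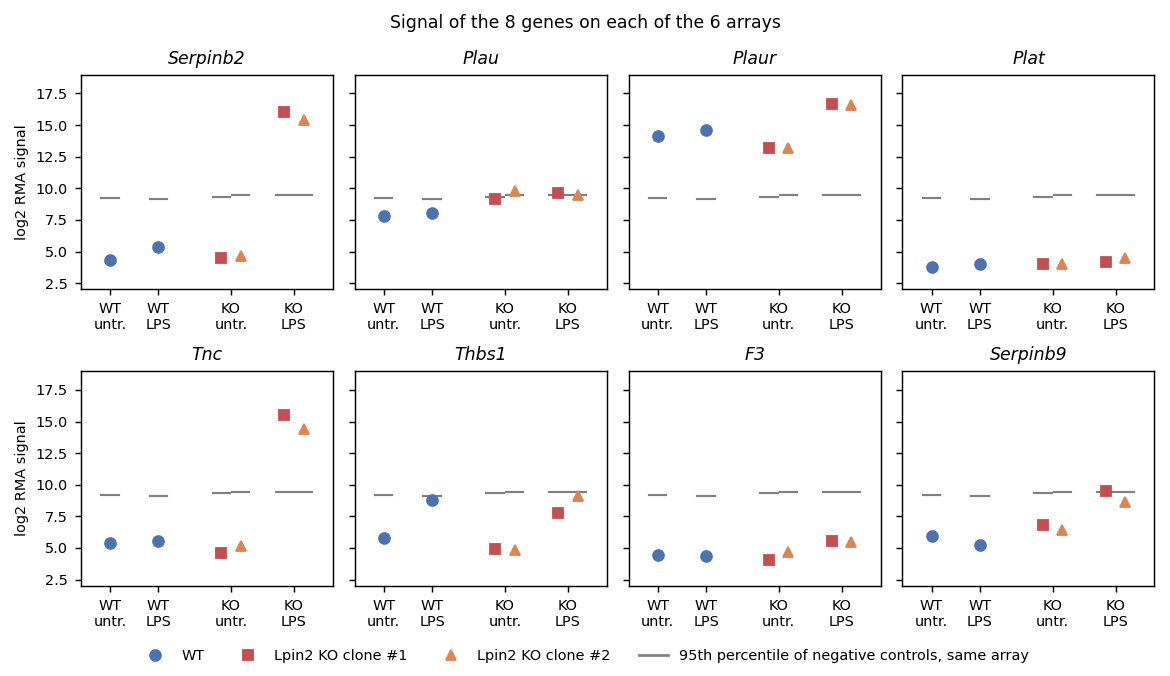
Log2 RMA signal of each of the 8 genes (1 panel each) on each of the 6 arrays, by genotype and treatment (untr., untreated); circles are WT, squares Lpin2 KO clone #1, triangles clone #2, and the grey lines give the 95th percentile of the negative controls of the same array. Serpinb2 lay between 4.34 and 5.36 on the 4 arrays other than KO with LPS and at 16.07 and 15.44 on those, and Plaur was above the lines on all 6.

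Plau, which encodes urokinase (chr14:20836662-20843388), was higher in KO cells with or without LPS. Its log2 signal was 7.83 for WT and 9.13 (#1) and 9.75 (#2) for the clones without LPS, then 8.08 for WT and 9.61 (#1) and 9.47 (#2) for the clones with LPS. Only 3 of the 4 KO arrays were above background, and neither WT array was. The untreated KO cells were higher by 1.61 (SE 0.29, limma adjusted p = 0.0436), at least 1.17-fold in the mean of the clones when the dim WT array is set at its background level. With LPS they were higher by 1.45 (SE 0.29, adjusted p = 0.0305), at least 1.34-fold. The untreated call was lost without untreated clone #1 (adjusted p = 0.0558) or #2 (adjusted p = 0.13), and the call with LPS was lost without clone #1 with LPS (adjusted p = 0.065). LPS itself moved Plau little, by 0.10 (SE 0.24, adjusted p = 0.852) in KO cells, with clone #1 at 0.48 and clone #2 at -0.28, and by 0.26 in WT cells.

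Plat, the gene of tissue plasminogen activator (chr8:22757722-22782848), was dim throughout. Its 6 signals ran from 3.77 in untreated WT cells to 4.46 in clone #2 with LPS. The KO-minus-WT differences were 0.26 untreated (adjusted p = 0.556) and 0.32 with LPS (adjusted p = 0.42). The urokinase gene was thus the only one of the activator pair above background on any array.

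Plaur, the gene of the urokinase receptor (chr7:24460937-24475970), was the member with a signal above background in every culture, and its order between genotypes turned over with LPS. The signal was 14.15 in untreated WT cells, against 13.17 and 13.16 in untreated clones #1 and #2. After LPS, WT stood at 14.62 and the clones at 16.65 (#1) and 16.59 (#2). The clones differed from each other by 0.01 untreated and 0.06 with LPS. Untreated KO cells were 1.98-fold lower than WT cells (log2 -0.99, SE 0.18, adjusted p = 0.0472), a call that was lost without clone #1 (adjusted p = 0.162) or clone #2 (adjusted p = 0.197). LPS-treated KO cells were 4-fold higher than WT cells (log2 2.00, SE 0.18, adjusted p = 0.00238). Within the KO clones Plaur rose with LPS by 3.46 (SE 0.15, adjusted p = 0.000218), an 11-fold change, against 0.47 (SE 0.21, adjusted p = 1) in WT cells. The difference between these responses was 2.99 (SE 0.26, adjusted p = 0.0082).

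Serpinb2 (chr1:107500892-107525600) the gene with AP-1 and TATA strings in the sequence above, was dim in every culture but the LPS-treated KO clones. Its signal was 4.34 for WT and 4.52 (#1) and 4.66 (#2) for the clones without LPS, and 5.36 for LPS-treated WT. The LPS-treated clones reached 16.07 (#1) and 15.44 (#2), with a mean of 15.75 (SD 0.45, n = 2). Those 2 arrays stood far above the other 4, which are all below background. With the dim WT array at its background level, KO cells with LPS were at least 99.5-fold higher than WT cells, and at least 6.3-fold where the 99th percentile of the negative controls is used instead. Against the untreated KO cells the LPS-treated KO cells were at least 82.1-fold higher, and at least 6.59-fold by the stricter level. The measured log2 differences were 10.39 (SE 0.30) and 11.17 (SE 0.24). In untreated cells, a contrast in which Serpinb2 had not been picked, KO and WT cells differed by 0.25 (SE 0.30, adjusted p = 0.718), with all 3 arrays dim.

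Serpinb9 (chr13:32997061-33017955) was 5.93 for WT and 6.79 (#1) and 6.45 (#2) for the clones without LPS, then 5.25 for WT and 9.51 (#1) and 8.61 (#2) for the clones with LPS. Of all these arrays, clone #1 with LPS alone was above background. The granzyme B inhibitor was higher in KO than WT cells with LPS by 3.81 (SE 0.39, adjusted p = 0.00353), and rose with LPS in the clones by 2.44 (SE 0.32, adjusted p = 0.00542). The untreated difference was 0.69 (SE 0.39, adjusted p = 0.414). LPS moved the signal by -0.67 in WT cells, and the difference between the responses was 3.12 (SE 0.56, adjusted p = 0.0484). That call was lost without untreated clone #1 (adjusted p = 0.124) or #2 (adjusted p = 0.154). Serpinb9 has close relatives in the mouse genome, so how much of its probe set's signal belongs to them is uncertain.

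Tnc, the tenascin C gene (chr4:63959785-64047015), followed the Serpinb2 pattern. It was 5.38 for WT and 4.64 (#1) and 5.16 (#2) for the clones without LPS, and 5.54 for LPS-treated WT. The LPS-treated clones reached 15.53 (#1) and 14.42 (#2), with a mean of 14.97 (SD 0.78, n = 2). The gap between the clones was 1.11 with LPS, far less than the distance from either to the other 4 arrays, all dim. KO cells with LPS were at least 57.9-fold higher than WT cells with LPS (at least 3.67-fold over the 99th percentile of the negative controls) and at least 47.8-fold higher than untreated KO cells (at least 3.83-fold by the stricter level). The log2 differences were 9.43 (SE 0.48) and 10.08 (SE 0.39). In untreated cells KO and WT differed by -0.49 (SE 0.48, adjusted p = 0.643).

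Thbs1, the thrombospondin 1 gene (chr2:118111876-118127133), moved upward with LPS in all 3 cell lines, while staying below background. It was 5.81 for WT and 4.89 (#1) and 4.82 (#2) for the clones without LPS, then 8.78 for WT and 7.80 (#1) and 9.14 (#2) for the clones with LPS. The WT array with LPS fell between the KO clones. The change was 2.98 (SE 0.59, adjusted p = 1) in WT cells and 3.62 (SE 0.42, adjusted p = 0.00357) in KO cells, a rise between groups that are both dim. The responses differed by 0.64 (SE 0.73, adjusted p = 0.75). KO and WT cells differed by -0.31 with LPS (SE 0.51, adjusted p = 0.792), and by -0.98 (adjusted p = 0.0479) without clone #2 and 0.36 without clone #1. Thbs1 had no KO-minus-WT difference that passed the test on all arrays. Tnc, its matricellular partner in this group, is given without a test with LPS because it was picked there. Whether the genes differ was therefore not tested.

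F3, the tissue factor gene (chr3:121723537-121735052), had signals of 4.47 for WT and 4.07 (#1) and 4.67 (#2) for the clones without LPS, then 4.40 for WT and 5.56 (#1) and 5.49 (#2) for the clones with LPS. All 6 were dim, and the KO arrays with LPS were the highest pair. In KO cells F3 rose with LPS by 1.16 (SE 0.23, adjusted p = 0.0233), a call lost without clone #1 with LPS (adjusted p = 0.0657) or untreated clone #1 (adjusted p = 0.0886). KO and WT cells with LPS differed by 1.13 (SE 0.28, adjusted p = 0.0627). This difference passed with the clone as a block (adjusted p = 0.0354), with the compared arrays alone (adjusted p = 0.0453) and with an intensity trend (adjusted p = 0.049). Leaving out untreated clone #1 or #2 gave this contrast the same fit as the compared arrays alone. Under the other limma alternatives its adjusted p was 0.0511 to 0.125. The untreated difference was -0.10 (SE 0.28, adjusted p = 0.894). No fold is given for F3 because both sides of each comparison were below background.

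**Figure D2:**
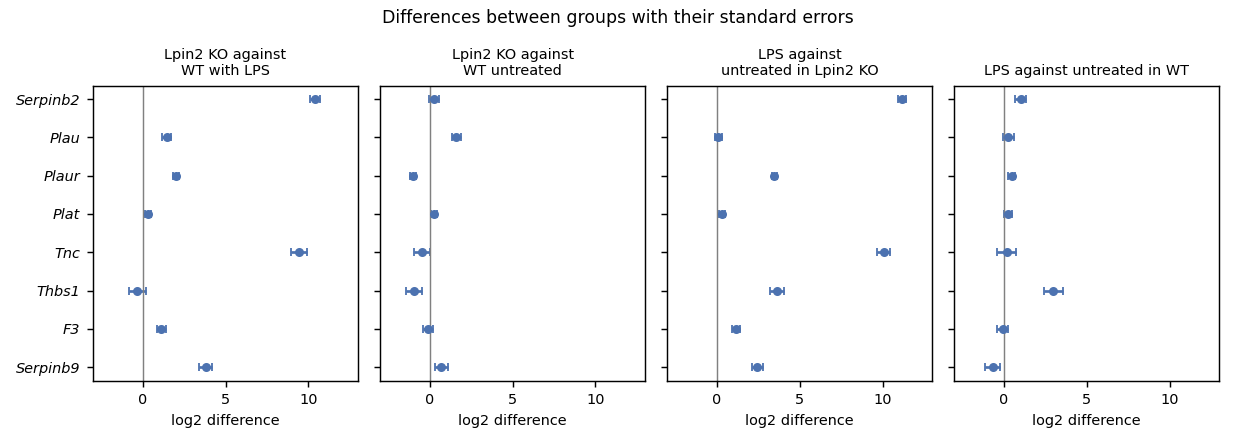
Log2 difference of each of the 8 genes in 4 comparisons (panels), with bars of 1 standard error from the limma fit to all 6 arrays; the vertical line is 0. With LPS, Serpinb2 and Tnc stood at 10.39 and 9.43 in KO against WT cells, and in WT cells LPS moved Thbs1 by 2.98 and Serpinb2 by 1.02.

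Leaving Serpinb2 and Tnc aside again, 4 of the other 6 genes were called higher with LPS in KO cells (Plaur, Serpinb9, Thbs1 and F3, the last pair dim) and none lower, beside 16.6% of all genes called, 6.84% higher and 9.8% lower, with medians of 1.80 and -0.034. In WT cells none of the 8 was called and neither was any other gene (0% of all genes by limma, adjusted). Of the 19505 genes, 658 had an unadjusted limma p under 0.05 there, a smaller share than that threshold. With 1 WT array per treatment, this comparison takes its spread from the KO clones. Over 2-fold with no test, Serpinb2 and Thbs1 were higher with LPS in WT cells, beside 0.436% of genes. The LPS responses of KO and WT cells differed upward for 2 of these 6 (Plaur and Serpinb9), beside 3.29% of all genes, 1.43% upward and 1.86% downward, with medians of 0.94 and -0.044. These comparisons share arrays and are not independent of each other. The 6 genes were chosen with earlier results of these data known, so their counts and medians here are no independent evidence either. In RNA of whole cultures, a change in the share of responding cells and a change of RNA per cell cannot be told apart.

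The clones responded alike in direction except at Plau. The LPS change of Serpinb2 was 11.55 in clone #1 and 10.78 in clone #2, against 1.02 in WT cells. That of Tnc was 10.89 and 9.26, against 0.16. Plaur changed by 3.48 and 3.43, against 0.47, and Serpinb9 by 2.73 and 2.16, against -0.67. In each of these 4 genes both clones lay above the WT change, but all 4 were picked or called for higher values in KO cells with LPS. Thbs1 was the member with the largest gap between the clones on the LPS arrays, clone #1 being 1.34 below clone #2, and its changes of 2.91 and 4.33 lay on either side of the WT change of 2.98. F3 changed by 1.5 and 0.82, against -0.07, and Plat by 0.16 and 0.44, against 0.24.

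**Figure D3:**
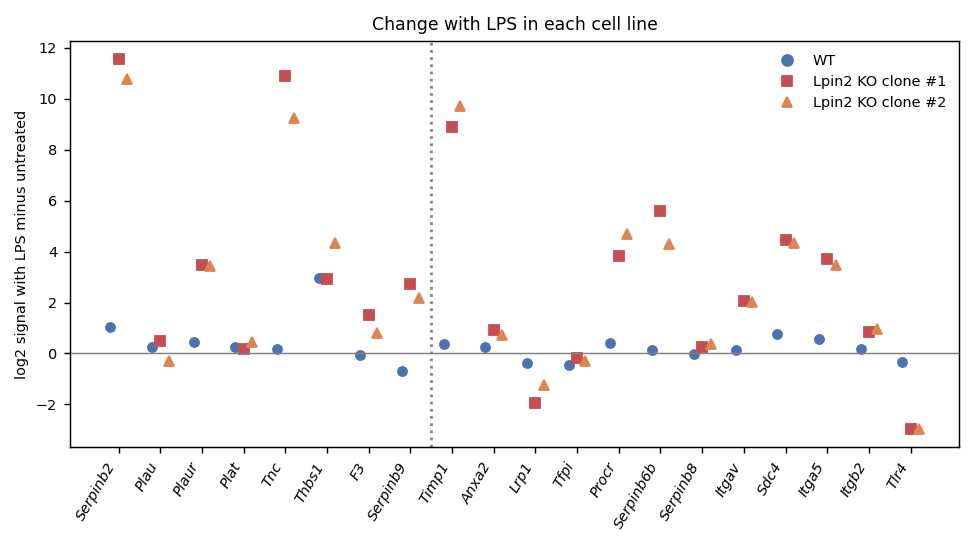
Change of the log2 signal with LPS (LPS minus untreated, vertical axis) in WT cells (circles), Lpin2 KO clone #1 (squares) and clone #2 (triangles), for the 8 genes left of the dotted line and the related genes to its right. Serpinb2, Tnc and Timp1 changed by 8.88 to 11.55 in the clones and by 0.16 to 1.02 in WT cells, and Tlr4 changed by -2.95 and -2.96 in the clones.

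The wider plasminogen list of 22 genes (receptors, inhibitors, matrix metalloproteinases and their inhibitors) had 18 measured, 5 of them above background on at least 1 array. With LPS, 3 were higher and 1 lower in KO than WT cells, beside 11.3% of all genes called, but 3 of these 4 were dim on both sides. The fourth was Timp1, an inhibitor of matrix metalloproteinases. Its signal was 8.83 for WT and 5.68 (#1) and 4.83 (#2) for the clones without LPS, then 9.21 for WT and 14.57 (#1) and 14.56 (#2) for the clones with LPS. It was higher in KO than WT cells with LPS by 5.36 (SE 0.36, adjusted p = 0.00112) and lower untreated, between dim groups (log2 -3.58, SE 0.36, adjusted p = 0.00746). In KO cells it rose at least 35.9-fold with LPS, or at least 2.88-fold over the 99th percentile of the negative controls (log2 9.30, SE 0.29, adjusted p = 0.000117). The list had 5 genes higher and 1 lower with LPS in KO cells (3 of the 6 dim), beside 16.6% of all genes called. Untreated, 2 were lower and 0 higher in KO cells (both dim), beside 4.31% of all genes. For the difference between responses 2 were higher, beside 3.29% of all genes. The annexin Anxa2, a cell surface partner of plasminogen, was above background everywhere, from 12.38 to 13.51, and rose with LPS in KO cells by 0.82 (SE 0.20, adjusted p = 0.0453), a call that was lost without any 1 of the 4 KO arrays (adjusted p = 0.0702 to 0.201). Lrp1, the endocytic receptor that clears activator and inhibitor complexes, was 14.02 and 14.20 in untreated clones #1 and #2 and 12.07 and 12.97 with LPS, a change of -1.59 (SE 0.31, adjusted p = 0.0201) whose call was lost without untreated clone #1 (adjusted p = 0.0903) or #2 (adjusted p = 0.117). The WT arrays for Lrp1 were 13.16 untreated and 12.77 with LPS, and the responses differed by -1.20 (adjusted p = 0.337). The other 4 genes of this list were not analysed here.

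Of 27 coagulation genes, 26 were measured (F2rl1 was not analysed here) and 2 were above background on any array. With LPS 3 were higher and 1 lower in KO than WT cells, with all 4 dim on both sides, and untreated 1 was higher and 1 lower, beside 11.3% and 4.31% of all genes called. The fit with the clone as a block gave 4 higher and 2 lower with LPS and 1 higher and 2 lower untreated. In KO cells LPS raised 4 and lowered 1, beside 16.6% of all genes called. For the difference between responses 1 gene was higher (4 higher and 1 lower with the clone as a block), beside 3.29% of all genes. Tfpi, the inhibitor of the tissue factor pathway, was 9.42 in untreated WT cells and 8.95 in WT cells with LPS. It was 4.89 and 4.90 in untreated clones #1 and #2, and 4.73 and 4.6 with LPS. The KO-minus-WT log2 differences were -4.52 untreated (SE 0.19, adjusted p = 0.000909) and, between dim groups, -4.29 with LPS (SE 0.19, adjusted p = 0.000606). Because untreated WT was only just above background, the bound on the untreated difference is at least 1.02-fold. Procr, the endothelial protein C receptor gene, was 5.02 and 5.47 in untreated clones #1 and #2 and 8.84 and 10.16 with LPS, a rise of 4.26 (SE 0.43, adjusted p = 0.00227) that is at least 1.08-fold over background. The WT arrays for Procr were dim, at 7.12 untreated and 7.52 with LPS.

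Among 25 other clade B serpins, the family of Serpinb2 and Serpinb9, 24 were measured (Serpinb3b was not analysed here) and 3 were above background. With LPS 2 were higher in KO than WT cells (4 with the clone as a block) and none lower, beside 11.3% of all genes called. No gene of the list was called untreated, beside 4.31% of all genes. In KO cells 2 rose with LPS, beside 16.6% of all genes called. Of these 2, Serpinb9g was dim, and its limma adjusted p of 0.0465 became 0.0552 with the block. The responses differed for 1 gene (2 with the block), beside 3.29% of all genes. Serpinb6b was 9.88 for WT and 8.23 (#1) and 9.25 (#2) for the clones without LPS, then 10.03 for WT and 13.81 (#1) and 13.53 (#2) for the clones with LPS. It was higher in KO cells with LPS by 3.64 (SE 0.42, adjusted p = 0.00503), rose in them at least 19.4-fold, or at least 1.55-fold over the 99th percentile of the negative controls (adjusted p = 0.000684), and belongs to a set of close copies whose signals may be shared. Serpinb8 was above background everywhere, 12.49 and 12.45 in WT cells and 13.12 to 13.65 in the clones, and was higher in KO cells with LPS by 1.13 (SE 0.22, adjusted p = 0.0259), which missed the threshold without clone #1 with LPS (adjusted p = 0.0639). Its LPS change in KO cells was 0.31 (adjusted p = 0.329). By contrast none of the 20 measured of 21 other tenascins, thrombospondins and matricellular genes (Spp1 was not analysed here) was above background on any array, and none was called in any of the 5 comparisons. With LPS the median KO-minus-WT difference was -0.03 over the wider plasminogen list, 0.08 over the coagulation list, 0.21 over the serpins and 0.05 over the matricellular genes, against -0.003 for all genes.

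The receptors of tenascin C and thrombospondin 1 and the partners of the urokinase receptor were better expressed, with 10 of 14 measured genes above background (Fpr1 and Fpr2 were not analysed here). In KO against WT cells 5 were higher and none lower with LPS, and 3 were higher and 2 lower untreated, beside 11.3% and 4.31% of all genes called. The median difference with LPS was 0.54, against -0.003 for all genes. LPS raised 5 and lowered 1 in KO cells, beside 16.6% of all genes called. The responses differed upward for 2 and downward for 1, beside 3.29% of all genes. Sdc4, a cell surface proteoglycan that binds matrix, was 13.35 for WT and 12.22 (#1) and 12.24 (#2) for the clones without LPS, then 14.11 for WT and 16.65 (#1) and 16.58 (#2) for the clones with LPS. Like Plaur it was lower in KO cells untreated (-1.12, adjusted p = 0.0351) and higher with LPS (2.51, adjusted p = 0.0013). The fibronectin receptor subunit Itga5 had the same order, 13.28 against 11.35 and 11.60 untreated and 13.83 against 15.07 and 15.05 with LPS, with differences of -1.80 (adjusted p = 0.0111) and 1.23 (adjusted p = 0.0156). Itgav, the αv subunit, was higher in KO cells in both states, by 1.35 (adjusted p = 0.0476) and 3.27 (adjusted p = 0.00146), and Itgb2, the β2 subunit, was higher with LPS by 1.23 (adjusted p = 0.0173). Without untreated clone #1 or #2 the untreated calls were lost for Sdc4 (adjusted p = 0.139 and 0.162), Itga5 (0.0674 and 0.0515) and Itgav (0.108 and 0.194). Tlr4, the LPS receptor, to which tenascin C also binds, was 9.80 for WT and 12.92 (#1) and 13.09 (#2) for the clones without LPS, a difference of 3.20 (SE 0.20, adjusted p = 0.00206). After LPS, WT stood at 9.47 and the clones at 9.97 (#1) and 10.13 (#2), and within the clones Tlr4 changed by -2.96 (SE 0.16, adjusted p = 0.000369).

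**Figure D4:**
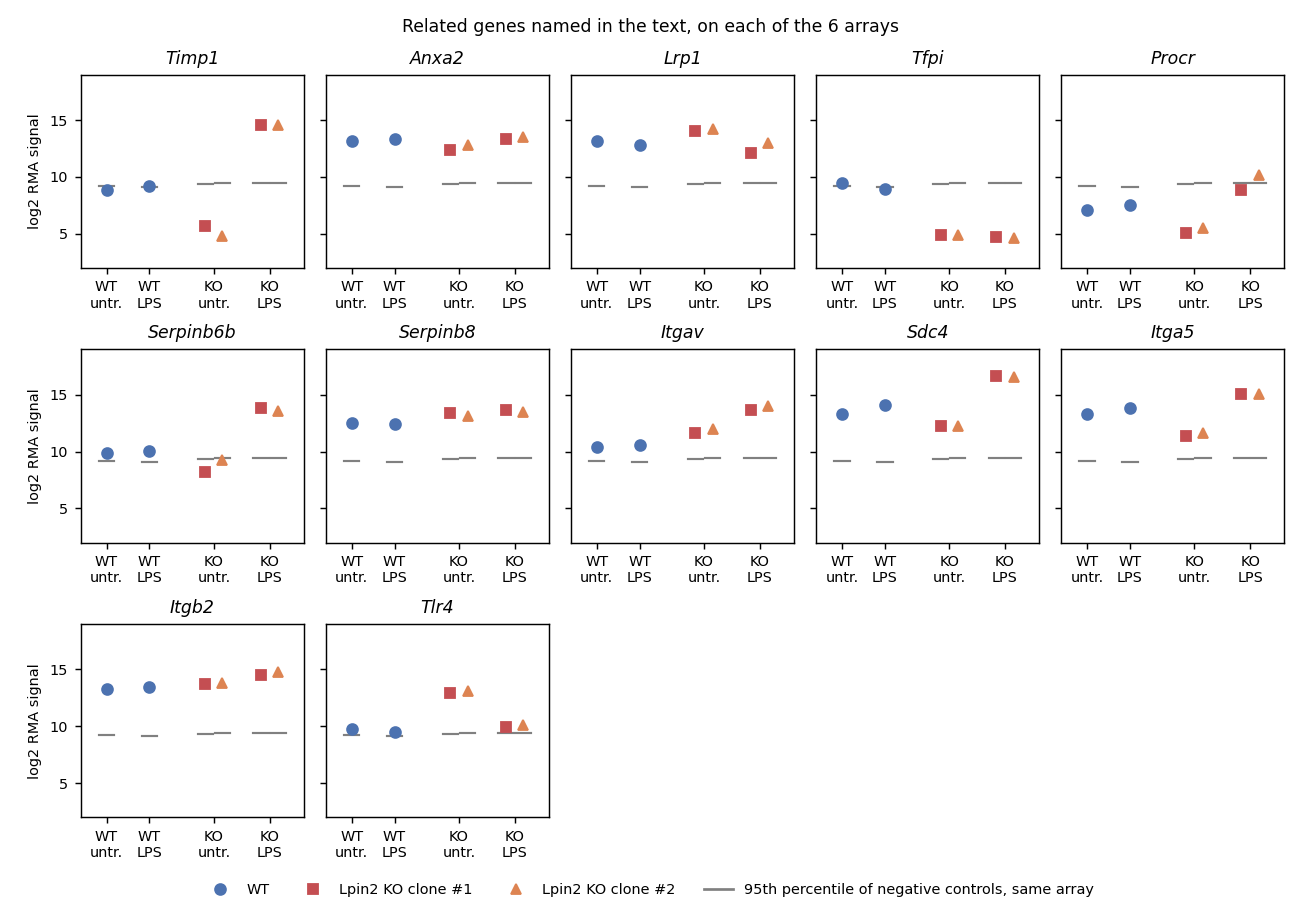
Log2 RMA signal of 12 related genes (1 panel each) on each of the 6 arrays, drawn as for the 8 genes: circles WT, squares Lpin2 KO clone #1, triangles clone #2, grey lines the 95th percentile of the negative controls. Timp1 and Serpinb6b stood at 13.53 to 14.57 on the KO arrays with LPS and at or below 10.03 on the others, and Tfpi was between 4.6 and 4.90 on all KO arrays.

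Likeness to Serpinb2 and Tnc over the 6 arrays was measured as the root mean square difference of log2 signals after each gene's own mean was taken off, among 6707 other genes above background on at least 1 array. The smallest differences from Serpinb2 were 0.67 for Tnc, 0.67 for the chemokine gene Ccl22, 0.95 for the interferon-induced Ifit1, 0.98 for the cytokine subunit gene Il27 and 1.10 for the chemokine gene Ccl5. Those from Tnc were 0.43 for Il27, 0.64 for the chemokine-binding receptor gene Ccrl2, 0.64 for Ccl22, 0.67 for Serpinb2 and 0.74 for the interferon-induced Ifit3. Il27, the closest to Tnc, had signals of 5.31 for WT and 4.81 (#1) and 5.23 (#2) for the clones without LPS, then 6.18 for WT and 14.88 (#1) and 13.92 (#2) for the clones with LPS. These genes share the high pair of KO arrays with LPS, on which the measure mostly rests. They also passed the background filter only on those arrays. Serpinb2 and Tnc were both picked for their values there, and that choice favours their likeness to each other.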

How the data were processed

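Total RNA of 6 RAW-D cultures was hybridised to mouse Clariom S arrays, and the deposited table holds log2 signals that the authors made by RMA in the Expression Console software (version not given in the sources used here), already background-corrected, quantile-normalized and summarised per probe set. RMA narrows differences near background. Of 22206 gene probe sets, 19572 had 1 symbol in the platform annotation, none had several and 2634 had none. The probe set with the highest mean stood for a gene (55 genes had several), which gave 19505 genes.

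Group means were fitted to all 6 arrays with lmFit and eBayes of limma 3.58.1 in R 4.3.3 (2 residual and 3.83 prior degrees of freedom), with two-sided tests and Benjamini-Hochberg adjustment over all genes at 0.05. WT groups have 1 array each and are assumed to vary like the KO clones. Nothing names repeat cultures of a clone, so p-values cover the spread between these 2 clones only, and an exact permutation of 1 against 2 arrays could not go below 0.333. A group is dim where no array exceeds the 95th percentile of its negative controls (5222 probes), and an at-least fold sets the dim arrays at that level, for the mean of the clones. The number of arrays limits the precision.

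The members and all gene lists were chosen with earlier results of these data known, so calls on them are no independent evidence. Named were all 8 members, up to 4 called genes each way per list with LPS and up to 2 in the other contrasts, if above background, and the 5 genes most like Serpinb2 and Tnc. The same clone was measured in both treatments, so clones pair the KO arrays (the clones' deviations correlated at 0.222 between treatments). Scripts were tested on simulated data. Alternatives were the clone as a block, leaving out each KO array, other normalizations, moderations, filters, thresholds and arrays, mean probe sets, a 2-fold rule and the methods' t-test.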

Additional observations from a re-analysis of the deposited data

Results flagged for a closer look

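Among the members and the related genes named from the lists, 9 were flagged for a difference between the LPS responses of KO and WT cells. For 7 of them a test of the difference itself passed (limma, adjusted over all genes), beside 3.29% of all genes called. The related genes were named partly because they were called in this comparison, so the count is no evidence about the lists. For Serpinb2 and Tnc the difference between the responses was 10.14 and 9.92 on the log2 scale, given without a test because both genes were picked for their values in KO cells with LPS. It was 2.99 for Plaur (adjusted p = 0.0082) and 3.12 for Serpinb9 (adjusted p = 0.0484). Among the related genes it was 8.93 for Timp1 (adjusted p = 0.00378), 4.79 for Serpinb6b (adjusted p = 0.0185), 3.62 for Sdc4 (adjusted p = 0.007), 3.04 for Itga5 (adjusted p = 0.00972) and -2.62 for Tlr4 (adjusted p = 0.0129). The call was lost without untreated clone #1 or #2 for Serpinb9 (adjusted p = 0.124 and 0.154) and Tlr4 (adjusted p = 0.0559 and 0.0595). Both clones lay on the same side of the WT change in each of the 9, which choosing genes by this difference favours. The WT response rests on 1 array per treatment, and the untreated WT array is the one whose label names another summary level. No group has enough arrays for a search for outlying samples.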

How the results depend on the processing

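With the clone as a replicate block (the paired fit), 1339 genes were called in KO against WT cells untreated and 1078 for the difference between LPS responses, against 840 and 641. Among the members the block changed the call of F3 in KO against WT cells with LPS (adjusted p = 0.0627 to 0.0354) and no other. Among the related genes named it added Procr with LPS (0.00535), untreated (0.015) and for the difference between responses (0.00389), and Itgav for that difference (0.015), while Serpinb9g was lost for LPS in KO cells (0.0552). Leaving out 1 KO array at a time gave 214 to 1184 genes untreated, 1485 to 3064 for LPS in KO cells, 162 to 1175 for the difference between responses and 1535 to 2512 with LPS, and, with Serpinb2 and Tnc counted, 0 to 2 members untreated, 4 to 6 with LPS, 5 to 6 for LPS in KO cells and 3 to 4 for the difference between responses.

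Untreated, 1 member was called after repeated quantile normalization, after centring, after cyclic loess and by the 2-fold rule. An intensity trend gave 1270 genes untreated and 1 for LPS in WT cells. At an adjusted p under 0.01 there were 940 genes with LPS, 211 untreated (0 members), 1500 for LPS in KO cells and 101 for the difference between responses. The 2-fold rule gave 1473 genes untreated, 144 for LPS in WT cells (2 members) and 2439 for the difference between responses. At an unadjusted threshold of 0.05 the methods' t-test called 1785 genes untreated, and with LPS it called 3 members (Plaur, F3 and Serpinb2). Its count over all genes with LPS is not given here, so these calls are not read as a result about the members. Serpinb2 was picked for its values in KO cells with LPS, so its call there is no test. After Benjamini-Hochberg it called 0 genes with LPS (0 members), 3 untreated (0 members) and 1 for LPS in KO cells (0 members).

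Signs turned for 6 member values, none of them called on all 6 arrays, over the arrays left out: F3 untreated ran from -0.40 to 0.20, Plau for LPS in KO cells from -0.21 to 0.41 and for the difference between responses from -0.47 to 0.15, Thbs1 with LPS from -0.98 to 0.36 and for the difference between responses from -0.03 to 1.31, and Plat for that difference from -0.07 to 0.19. Plau untreated also missed the threshold after repeated quantile normalization (adjusted p = 0.0578), Plaur untreated after centring (0.0591) and cyclic loess (0.0546), and Serpinb9 for the difference between responses after both (0.0525 and 0.0519). The causes were not tested. Signals below background limit Plat, Thbs1 and F3 on all arrays, and the single WT arrays limit every comparison with WT cells.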
